A study of Mus musculus with 36 samples.

Results

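The 10 Fanconi anemia genes Fanca, Fancb, Fancc, Fancd2, Fance, Fancf, Fancg, Fanci, Fancl and Fancm were followed across liver, spleen and thymus of mice. They were taken as the rows of the 2 deposited expression tables whose NCBI gene number carries one of these symbols, and all 10 were found in both tables, among 19001 rows in one and 17697 in the other. The proteins repair DNA crosslinks that join both strands and block replication forks. FANCM anchors a core complex of FANCA, FANCB, FANCC, FANCE, FANCF, FANCG and FANCL to damaged DNA, FANCL attaches ubiquitin to the FANCD2 and FANCI pair, and the marked pair recruits nucleases and recombination proteins. In cultured mouse and human cells, activated p53 is known to lower many genes of this pathway through p21, the product of Cdkn1a, which acts on the RB-family and E2F transcription factors.

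Total RNA was sequenced from wt tissues collected 3 h after 2 Gy of X-rays and from untreated wt tissues, as paired-end libraries, and from d24 and wt tissues, all titled xray, as single-end libraries. The allele called d24 lacks the C-terminus of p53, and wt mice carry wild-type p53. Each tissue and group had 3 libraries, which made 18 paired-end and 18 single-end libraries. The values are the authors' normalised signal, in which every read of a library counts the same fraction, and no value was compared across the tables by a test. The labels name neither the sex, the age nor the animal behind a library, so p-values measure the spread between these samples. Xist, which is transcribed from the inactive X chromosome of female cells, split the libraries into those at 360.8 to 1281 and those at 1.05 or less, and the groups were unequal in it. In each paired-end tissue it was high in X-ray replicates 1 and 2 and in untreated replicate 1. It was high in 2, 3 and 3 of the 3 libraries titled d24 in liver, spleen and thymus, and in 1, 1 and 2 of the 3 titled wt. If 1 animal gave several organs, the libraries of different tissues are not independent. The labels do not say, and the tests between tissues take them as independent.

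Reads in the listed genes numbered 44348579 to 81322683 a library in the paired-end table and 20481048 to 38042710 in the single-end table. Cdkn1a, which p53 activates, matched the paired-end labels: it was higher after X-rays by 2.97 ± 0.15 in liver, 4.87 ± 0.16 in spleen and 3.01 ± 0.12 in thymus on the log2 scale (SE). The single-end labels were at odds with each other. The treatment field gave control for 9 of the 18 libraries titled xray, namely d24 liver, d24 thymus and wt spleen. The other single-end groups, d24 spleen, wt liver and wt thymus, were labelled with 2 Gy and 3 h. In every tissue the groups titled d24 and wt thus carried opposite treatment labels. The field for the genotype gave WT for all 9 libraries titled d24. Cdkn1a in the libraries titled wt spleen xray was at 5.46, 7.36 and 9.37, close to the 4.88, 3.74 and 6.32 of untreated paired-end wt spleen and far below the 157, 162 and 150 of paired-end X-ray spleen, with the tables normalised separately. In the single-end table the genotype and the irradiation therefore cannot be told apart, and its groups are called here by their titles. Defining markers of each labelled tissue were present: the 6 hepatocyte markers summed to 325331 to 388934 in the paired-end livers, the 6 B cell markers to 1030 to 1452 in the spleens and the 10 T cell and thymocyte markers to 6340 to 8111 in the thymi.

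On the authors' scale, the Fanconi anemia genes were on the whole highest in spleen among the untreated wt tissues. The summed signal of a library differed between these tissues, at 1856580 to 1974820 in liver, 856981 to 964001 in spleen and 589786 to 599804 in thymus. The order of the tissues depends on that scale, and scaling to equal totals was not tried. In RNA of whole tissue, fewer cells of a type and less RNA per cell cannot be told apart. Exon length here is that of the merged exons of all GENCODE transcripts of a gene. That was 1691 bases from 1 transcript for Fancf and 8359 bases from 19 transcripts for Fancc. The annotation used for counting is not known, so the order of the genes depends on this choice of length. Per kilobase of exon, the spleen order was led by Fancl, the ubiquitin ligase, at 8.83 ± 0.19 and by its substrate Fanci at 8.73 ± 0.93 (signal per kb, SD, n = 3), whose ranges overlapped. Fancd2 followed at 6.39 ± 0.65 per kb and Fancg, a scaffold of the core complex, at 5.04 ± 0.21 per kb, each clear of its neighbours. Fanca and Fance lay together at 3.51 ± 0.37 and 3.49 ± 0.18 per kb, above Fancm at 2.93 ± 0.27 per kb. Fancc, Fancf and Fancb ended the spleen order at 2.16 ± 0.12, 1.91 ± 0.22 and 1.91 ± 0.16 per kb, with overlapping ranges. In thymus Fanci led at 4.32 ± 0.72 per kb and Fancf was lowest at 1.15 ± 0.13 per kb. In liver Fancl led at 4.04 ± 0.26 per kb and Fanca was lowest at 0.50 ± 0.13 per kb, with Fancd2 next to it at 0.750 ± 0.17 per kb.

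**Figure D1:**
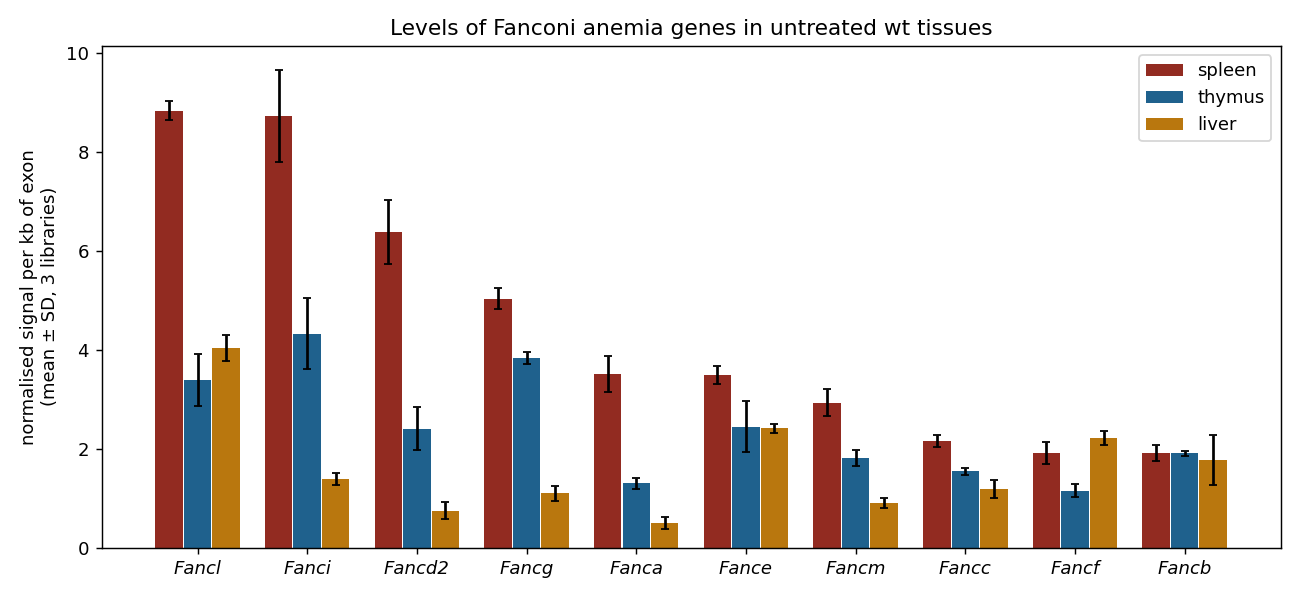
Normalised signal per kb of exon (bars, mean; whiskers, SD; 3 libraries) of the 10 genes in untreated wt spleen, thymus and liver, ordered by the spleen level. Fancl and Fanci lead in spleen at 8.83 and 8.73 per kb, while Fancb is at 1.91 in spleen and in thymus and 1.77 in liver.

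The widest tissue difference was that of Fancd2, at 45.9, 56.1 and 50.1 in spleen and 4.40, 6.53 and 6.93 in liver, a log2 difference of 3.01 ± 0.17 (adjusted p = 4.23e-09). Of the 10 genes, 8 were called higher in spleen than in liver by limma at an adjusted p below 0.05, in a comparison that called 43.0% of all genes tested higher in spleen. Fancf and Fancb were not: Fancf differed by -0.19 ± 0.13 (adjusted p = 0.18) and Fancb by 0.13 ± 0.17 (adjusted p = 0.485). Against thymus, 9 genes were higher in spleen, where the background was 36.8%, and only Fancb was not called, at -0.00 ± 0.17. Between thymus and liver, which share their libraries with the comparisons above, 6 genes were higher in thymus against a background of 42.0% (86.4% in either direction). Fancf went the other way, at 2.03, 2.12 and 1.69 in thymus and 3.75, 3.99 and 3.51 in liver (log2 difference -0.80 ± 0.13, adjusted p = 7.86e-05), and Fancl, Fance and Fancb were not called.

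Most Fanconi anemia genes were lower in wt spleen 3 h after X-rays. Of the 10 genes, 8 were called lower and none higher, and all 10 differences were negative, with a median of -0.75 on the log2 scale. The comparison called 20.4% of the 13389 genes tested lower, and its median over all genes was -0.03. The X-ray and untreated values did not overlap for 8 of the 10 genes, against 28.8% of all genes with X-ray values wholly below.

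Within the core complex, Fanca fell most. It was at 17.7, 10.4 and 10.8 in X-ray spleen and 27.9, 34.3 and 30.1 in untreated spleen, or 42.2% of the untreated mean (log2 difference -1.25 ± 0.19, adjusted p = 0.00156). All X-ray values lay below all untreated ones, and X-ray replicate 1 was the highest of the 3. Fancb, which binds FANCL and is X-linked, was at 3.53, 2.35 and 1.64 in X-ray spleen and 6.12, 5.76 and 5.20 in untreated spleen (-1.09 ± 0.21, adjusted p = 0.00443). Fancf, an adaptor that links FANCM to the complex, was at 1.67, 1.47 and 1.84 in X-ray spleen and 2.81, 3.36 and 3.53 in untreated spleen (-0.79 ± 0.14, adjusted p = 0.00314), values that rest on 71 to 216 reads a library. Fance, which contacts FANCD2, was at 8.43, 7.93 and 6.35 in X-ray spleen and 10.5, 11.4 and 11.5 in untreated spleen (-0.54 ± 0.13, adjusted p = 0.0109). Fancg, FANCA's direct partner, was at 15.4, 12.2 and 12.3 in X-ray spleen and 18.5, 18.8 and 20.0 in untreated spleen (-0.52 ± 0.12, adjusted p = 0.00976).

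The anchor and the ubiquitinated pair fell as well. Fancm was at 17.1, 10.4 and 13 in X-ray spleen and 31.3, 33.0 and 27.5 in untreated spleen, 44.1% of the untreated mean (-1.18 ± 0.17, adjusted p = 0.00126). Fanci was at 38.6, 25.6 and 25.3 in X-ray spleen and 48.9, 56.4 and 45.9 in untreated spleen (-0.77 ± 0.17, adjusted p = 0.00783). Its partner Fancd2 was at 41.1, 22.3 and 29.7 in X-ray spleen and 45.9, 56.1 and 50.1 in untreated spleen (-0.74 ± 0.20, adjusted p = 0.0178). X-ray replicate 1 of Fancd2 came near the untreated range, and the Fancd2 call was lost without untreated replicate 2 (adjusted p = 0.0702), untreated replicate 3 (adjusted p = 0.052) or X-ray replicate 3 (adjusted p = 0.0641), in a range of 0.00051 to 0.0702 over all settings.

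The ligase and 1 further core subunit did not pass the test. Fancl was at 29.7, 17.8 and 21.6 in X-ray spleen and 29.9, 30.4 and 29.1 in untreated spleen (-0.39 ± 0.17, adjusted p = 0.0901), and was called in 1 fit of all 18 paired-end libraries (adjusted p = 0.0457, in a range of 0.00197 to 0.237 over all settings). Fancc was at 18.8, 12.5 and 15 in X-ray spleen and 18.3, 16.9 and 18.8 in untreated spleen (-0.24 ± 0.15, adjusted p = 0.227). X-ray replicate 1 held the highest X-ray spleen value of 9 of the 10 genes, all but Fancf. Without that library all 10 genes were called lower. In the same refit 13 of 14 proliferation genes, 13 of 20 further Fanconi pathway genes and 13 of 17 DREAM and E2F genes were called lower. The share of all genes is not given for this refit.

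**Figure D2:**
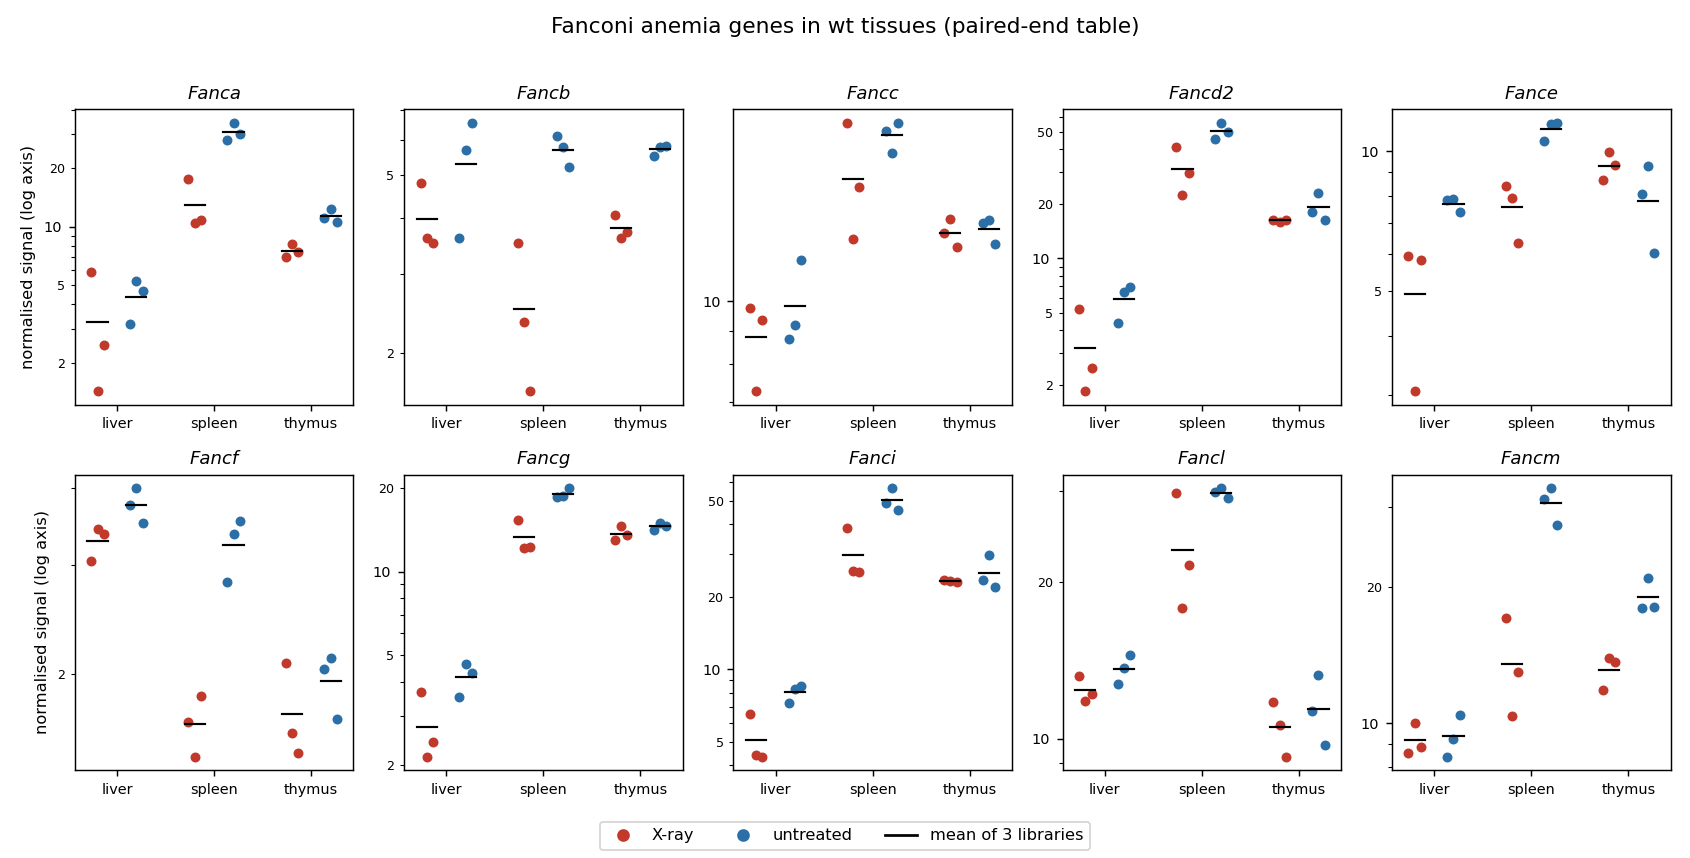
Normalised signal (log axis, its range set for each gene) of the 10 genes in each paired-end wt library, X-ray beside untreated in liver, spleen and thymus; points are libraries and lines are means of 3. In spleen the X-ray points of 8 genes lie wholly below the untreated points, while in thymus this holds for Fanca, Fancb and Fancm.

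The DNA before 1 RefSeq transcript start of each gene was searched for the letters that E2F factors and the repressor complex DREAM are known to bind, since the genes moved together in spleen. The RefSeq promoter table of build GRCm38.p6 held 9 of the 10 genes, all but Fancd2. In the 250 bases before that start, on either strand, an E2F-type match (the letters TTCCCGC, their variant TTGGCGC, their variant TTCGCGC or their variant TTGCCGC) was present in 4 of the 9, against 7.89% of 32851 promoters. A cell-cycle homology match (the letters TTTGAA or their variant TTCGAA) was present in 0 of the 9, against 17.1% of promoters, and CCAAT in 6 of the 9, against 33.8%. The 32851 promoters were taken without a filter on gene type or expression, so they are not matched to these genes. The E2F-type matches, and the pair of CCAAT boxes of Fanca, are shown on the gene's own strand, with the matching letters in capitals.
Fancb, chrX:164980409-164980437, plus strand: ccggggtagagGCGGGAAtaagtgctctg
Fancf, chr7:51862371-51862399, minus strand: gttcattttcaGCGCCAAtgtgccccgga
Fancg, chr4:43010335-43010363, minus strand: ttcttttcagtTTCCCGCggaaccgtctc
Fancm, chr12:65075485-65075513, plus strand: ccgtcacacacTTCGCGCaatacgcatgc
Fancm, chr12:65075538-65075566, plus strand: aaccaatcatcTTCCCGCcgcaaaatcgg
Fanca, chr8:123318610-123318638, minus strand: gcatgctcctagCCAATgagcgccagcgc
Fanca, chr8:123318583-123318611, minus strand: gcctggccgcggCCAATcggaaggcagcg
Counted from the transcript start in the table, the matches begin 172 bases before it in Fancb, 121 in Fancf, 51 in Fancg, 107 and 54 in Fancm, and 50 and 23 in Fanca. That start is not always the outermost end of the gene. The Fancg match lies inside an exon of Fancg itself in GENCODE, and the Fancm and Fanca matches lie inside the span of the gene in RefSeq but before it in GENCODE. The Fancb and Fancf matches lie before the gene in both annotations. In the 200 bases before the start, GENCODE exons of other genes added up to 200 bases in Fancf and in Fancm, and to 0 in Fancb. The Fancc start of the table lies 65547 bases inside the RefSeq span of Fancc, so its window is not the region before the gene. In Fancf the E2F-type match shares its letters CCAA with a CCAAT box. All 4 genes with an E2F-type match were called lower in X-ray spleen, and so were Fanca, Fance and Fanci, which lack one in this window. A match is a string of letters here, not a measured binding site.

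In wt thymus 3 of the 10 genes were called lower after X-rays, Fanca, Fancb and Fancm. The comparison called 11.6% of 13810 genes lower. Fanca was at 7, 8.19 and 7.44 in X-ray thymus and 11.2, 12.3 and 10.6 in untreated thymus (log2 difference -0.56 ± 0.11, adjusted p = 0.00822). Fancb was at 4.07, 3.62 and 3.73 in X-ray thymus and 5.52, 5.78 and 5.80 in untreated thymus (-0.53 ± 0.12, adjusted p = 0.0135). Fancm was at 11.8, 13.9 and 13.6 in X-ray thymus and 17.9, 20.9 and 18.1 in untreated thymus (-0.52 ± 0.11, adjusted p = 0.00932). For these 3 genes every X-ray value lay below every untreated one, as it did for 22.0% of all genes.

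The other 7 genes overlapped between X-ray and untreated thymus and did not pass the test. Fance had the only positive difference, with 8.66, 9.95 and 9.31 in X-ray thymus and 8.07, 9.29 and 6.06 in untreated thymus (0.26 ± 0.15, adjusted p = 0.252). Fancd2 was at 16.4, 16 and 16.2 in X-ray thymus and 18.1, 23.0 and 16.2 in untreated thymus (-0.22 ± 0.12, adjusted p = 0.236), and Fanci was at 23.5, 23.3 and 23.1 in X-ray thymus and 23.3, 29.7 and 21.8 in untreated thymus (-0.08 ± 0.11, adjusted p = 0.629). Fancc, Fancf, Fancg and Fancl differed by between -0.14 and -0.02. Estimating the spread over all 18 paired-end libraries left only Fancm called: Fanca then had an adjusted p of 0.227 (range over all settings 0.000131 to 0.227) and Fancb of 0.096 (range 0.0029 to 0.096).

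In wt liver no Fanconi anemia gene passed the test by limma, edgeR or DESeq2. By limma 4 of the 10 had an unadjusted p below 0.05, as did 2902 of the 13250 genes tested. The comparison called 0.0377% of 13250 genes lower and 0.242% in either direction. All 10 differences were negative, with a median of -0.44 beside -0.05 over all genes. Fancd2 was at 5.27, 1.85 and 2.48 in X-ray liver and 4.40, 6.53 and 6.93 in untreated liver (-0.89 ± 0.33, adjusted p = 0.199). Fance was at 5.94, 3.05 and 5.84 in X-ray liver and 7.85, 7.89 and 7.39 in untreated liver (-0.64 ± 0.24, adjusted p = 0.196), without overlap. Fanci was at 6.53, 4.41 and 4.34 in X-ray liver and 7.26, 8.28 and 8.54 in untreated liver (-0.63 ± 0.18, adjusted p = 0.191), also without overlap. With Fancf, which was not called (-0.17 ± 0.15), 3 of the 10 genes had X-ray values wholly below the untreated ones, beside 13.9% of all genes.

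With the spread estimated over all 18 paired-end libraries, 4 genes and 7.03% of all genes were called lower in X-ray liver. The 4 were Fanci (adjusted p = 0.0297), Fancg (adjusted p = 0.0329), Fance (adjusted p = 0.0405) and Fancd2 (adjusted p = 0.0406).

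The liver result also turned on X-ray replicate 1. That library was the highest X-ray liver for 8 of the 10 genes, all but Fancf and Fancm (Fanca, for example, was at 5.86, against 1.43 and 2.48), and for the proliferation marker Mki67 (91.9, against 40.9 and 36.8 in the other X-ray livers and 104, 126 and 81.5 in untreated livers). Without it 4 genes were called lower: Fancd2 (-1.26, adjusted p = 0.0155), Fanci (-0.80, adjusted p = 0.017), Fancg (-0.74, adjusted p = 0.0301) and Fanca (-0.998, adjusted p = 0.0359). In the same refit 11 of 14 proliferation genes, 5 of 20 further Fanconi pathway genes and 5 of 17 DREAM and E2F genes were called lower. The share of all genes is not given for this refit, and the shares above belong to other fits. Over all settings the adjusted p ranged from 0.0155 to 0.459 for Fancd2, from 0.017 to 0.458 for Fanci, from 0.0301 to 0.472 for Fancg and from 0.0359 to 0.871 for Fanca. Fancm in liver was at 8.61, 10.02 and 8.88 after X-rays and 8.44, 9.22 and 10.4 in untreated tissue (-0.03, 95% interval -0.35 to 0.30).

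**Figure D3:**
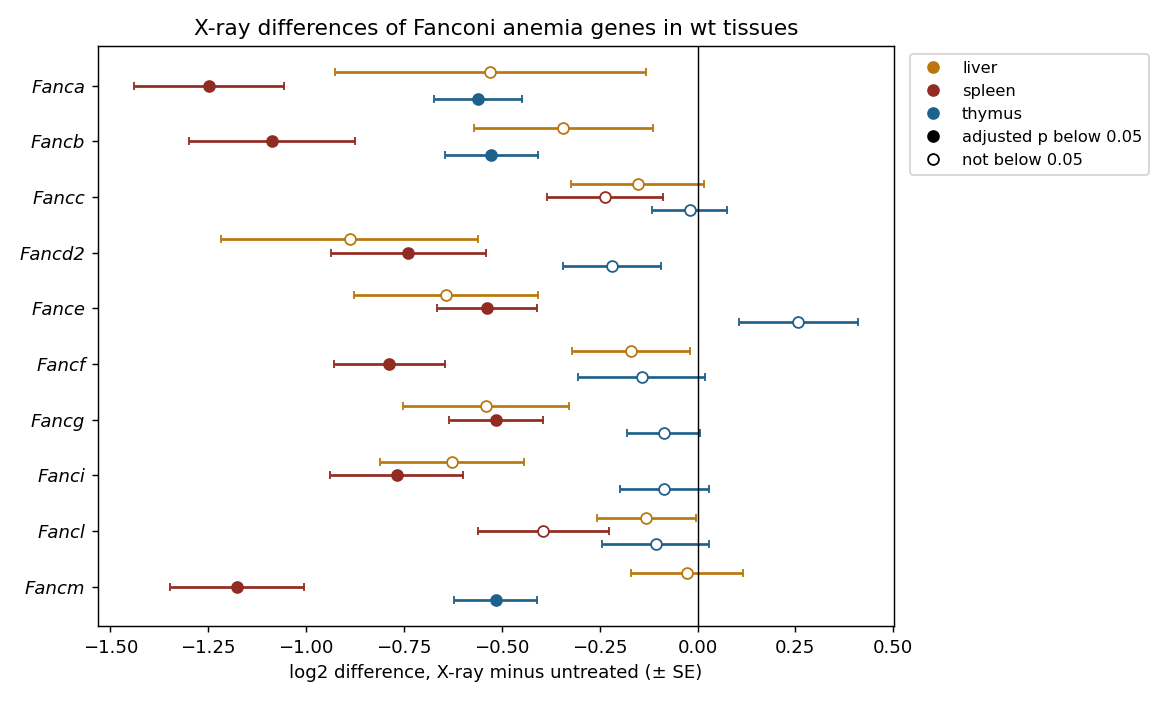
Log2 X-ray minus untreated difference of each gene in wt liver, spleen and thymus (points; whiskers, SE of the limma fit, 3 libraries a group); filled points passed an adjusted p below 0.05. Filled points number 8 in spleen, 3 in thymus and 0 in liver, and the Fancm points lie apart, at -0.03 in liver, -1.18 in spleen and -0.52 in thymus.

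The X-ray difference itself differed between the tissues for 3 of the 10 genes, a share near the 30.5% of 15654 genes that the test called. Fancm had the largest tissue dependence of the 10 (F = 14.9, adjusted p = 0.00296): its difference in spleen was lower than in liver by -1.15 ± 0.21 (adjusted p = 0.00126). Fancf followed (F = 7.55, adjusted p = 0.0227), lower in spleen than in liver by -0.62 ± 0.19 (adjusted p = 0.0235) and than in thymus by -0.64 ± 0.19 (adjusted p = 0.0387 by limma). That last difference, between spleen and thymus, was called for 1 of the 10 genes by limma, 0 by edgeR and 3 by DESeq2. Fance (F = 6.33, adjusted p = 0.0353) differed between thymus and liver, by 0.90 ± 0.28 (adjusted p = 0.0378). For Fanca the tests did not separate the tissues (F = 1.76, adjusted p = 0.303). The background was 26.4% of genes for spleen against liver, 15.5% for thymus against liver and 9.54% for spleen against thymus.

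Leaving out single libraries moved this count between 1 and 6. It was 6 without X-ray liver replicate 1, 5 without X-ray spleen replicate 1 and 1 without untreated spleen replicate 2 or replicate 3. The share of all genes is not given for these refits. Fancm stayed below 0.05 in every refit, with an adjusted p of 0.000123 to 0.0105. Fance was lost in 9 refits (range 0.00746 to 0.107) and Fancf in 3 (range 0.0136 to 0.0615).

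Further genes of the Fanconi pathway were also lower in spleen. Of 20 further genes of the pathway, 9 were called lower in X-ray spleen, where 20.4% of all genes were, and none higher, with a median of -0.45. Palb2, which brings BRCA2 to chromatin, was at 10.6, 8.20 and 8.92 in X-ray spleen and 17.8, 18.1 and 16.9 in untreated spleen (-0.91 ± 0.12, adjusted p = 0.000818). Brip1, a helicase, fell by 0.95 ± 0.14 (adjusted p = 0.00138). Cenps and Cenpx, whose products bind FANCM as a histone-fold pair, fell by 1.06 ± 0.16 (adjusted p = 0.00158) and 0.63 ± 0.13 (adjusted p = 0.00535). In thymus 2 of the 20 were called lower, a share near the 11.6% of all genes, and without untreated replicate 2 it was 1 lower and 1 higher. They were Rfwd3, a ubiquitin ligase (-0.41 ± 0.08, adjusted p = 0.00849), and Usp1, whose product removes ubiquitin from FANCD2 (-0.45 ± 0.10, adjusted p = 0.0136). In liver none of the 20 was called, with a median of -0.29, and 5 were called lower without X-ray replicate 1.

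Genes of DNA replication and cell division were lower too. Of 14 proliferation genes, 9 were called lower in X-ray spleen (median -1.06), 11 in X-ray thymus (median -0.58) and 0 in X-ray liver (median -0.76, and 11 without X-ray replicate 1). The shares of all genes called lower were 20.4%, 11.6% and 0.0377% in the full fits. The differences were negative for 13, 14 and 13 of the 14 genes. Mcm2, a subunit of the replicative helicase, was at 210, 149 and 134 in X-ray spleen and 281, 373 and 337 in untreated spleen (-1.02 ± 0.18, adjusted p = 0.00317), and it also fell in thymus (-0.64 ± 0.11, adjusted p = 0.00507). Mki67 was not called in spleen (0.20 ± 0.23, adjusted p = 0.522) and had an adjusted p of 0.058 in thymus (-0.28 ± 0.09). Of 17 genes for DREAM and E2F proteins, 8 were called lower and 2 higher in X-ray spleen, 6 lower and 1 higher in X-ray thymus, and none was called in X-ray liver. The number called lower in spleen was 4 without any 1 of the 3 untreated replicates or without X-ray replicate 3, and 13 without X-ray replicate 1. In liver it was 5 without X-ray replicate 1. Trp53 itself, the p53 gene, did not pass the test in any tissue, at -0.14 ± 0.13 in liver, -0.03 ± 0.13 in spleen and -0.23 ± 0.07 in thymus (adjusted p = 0.0503 there).

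**Figure D4:**
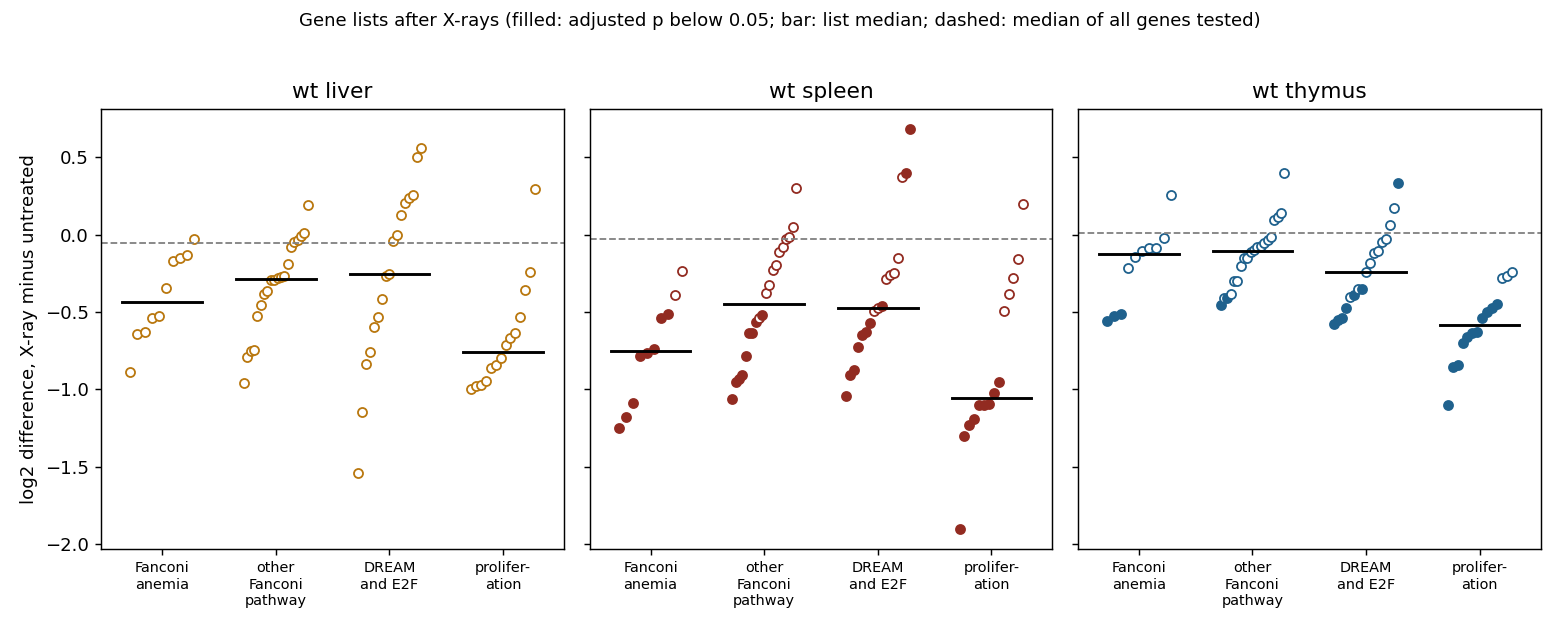
Log2 X-ray minus untreated differences in wt liver, spleen and thymus for the 10 Fanconi anemia genes, 20 other Fanconi pathway genes, 17 DREAM and E2F genes and 14 proliferation genes; each point is a gene, filled where the adjusted p was below 0.05, bars are list medians and the dashed line is the median of all genes tested. In spleen the medians of the lists lie below the all-gene median of -0.03, at -0.75 for the Fanconi anemia genes and -1.06 for the proliferation genes.

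Markers of several cell types moved with the spleen result. All 6 hepatocyte markers were higher, with summed levels of 39.1 to 470 in X-ray spleen and 22.4 to 44.0 in untreated spleen, and so were all 5 macrophage markers, at 449 to 650 in X-ray spleen and 290 to 381 in untreated spleen. Of the 6 B cell markers, 2 were called higher and 1 lower, with sums of 1030 to 1452 in X-ray spleen and 1057 to 1253 in untreated spleen. Of 7 erythroid precursor markers, 1 was called lower (Gata1), with sums of 10061 to 17604 in X-ray spleen and 9493 to 12496 in untreated spleen. Of these 7 differences, 4 were negative, with a median of -0.28. All 5 neutrophil precursor differences were positive, with 1 called higher and sums of 30.2 to 68.9 in X-ray spleen and 20.3 to 42.2 in untreated spleen. Of 8 T cell and thymocyte markers tested, 1 was called higher and 1 lower. No hepatocyte, macrophage, B cell or erythroid marker was at 0 in a paired-end spleen library. X-ray replicate 1, the library with the highest Fanconi anemia values of the X-ray spleens, stood apart in several of these sums. Its hepatocyte sum of 39.1 lay inside the untreated range, against 470 and 400 in the other X-ray spleens, and its macrophage sum of 449 was the lowest and its erythroid sum of 17604 the highest of the X-ray spleens. Its proliferation genes summed to 7813, against 4550 and 5635 in the other X-ray spleens and 7436 to 7896 in untreated spleen. In thymus 3 of 5 thymic epithelial markers were called higher, with sums of 593 to 686 after X-rays and 367 to 384 in untreated tissue. Also 3 of 5 macrophage markers were called higher, at 200.2 to 293 in X-ray thymus and 153 to 192 in untreated thymus. The 10 T cell and thymocyte markers summed to 6340 to 8111 in X-ray thymus and 6429 to 7322 in untreated thymus, with 1 called lower. Of 5 erythroid precursor markers tested there, 1 was called lower. All 6 hepatocyte markers had positive differences in thymus (median 1.71), with none called. Their sums were 52.3, 95.7 and 1394 in X-ray thymus replicates 1 to 3 and 24.8 to 171 in untreated thymus. The part of these shifts in the Fanconi anemia differences was not tested.

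Between the libraries titled d24 and wt, both titled xray, no Fanconi anemia gene was called in any tissue by limma, edgeR or DESeq2. The number with an unadjusted p below 0.05 by limma was 1 in liver, 0 in spleen and 0 in thymus. Over all genes it was 1829 of 13695, 1796 of 13554 and 1359 of 13818. The comparisons called 0.526%, 2.28% and 0.00724% of all genes. The interval of each difference was wide, so the data bound the differences only loosely. In spleen, Fanca was at 11.9, 28.9 and 10.8 in the libraries titled d24 and 25.4, 22.1 and 13.4 in those titled wt (-0.33, 95% interval -1.25 to 0.60). Fancd2 was at 24, 29.4 and 32.1 in d24 spleen and 49.8, 37.9 and 20.6 in wt spleen (-0.26, 95% interval -1.02 to 0.51), and Fancm at 26.6, 39.3 and 15.4 in d24 spleen and 46.5, 29.6 and 12.9 in wt spleen (-0.05, 95% interval -1.06 to 0.97). The groups overlapped for all 10 genes in spleen, where they did not for 19.3% of all genes. Cdkn1a in the same spleens was at 319, 416 and 384 in d24 and 5.46, 7.36 and 9.37 in wt, a log2 difference of 5.59 ± 0.28.

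The cell makeup of these single-end spleens differed too. All 5 neutrophil precursor markers were lower in d24 spleen, with sums of 0.571 to 6.28 in d24 and 319 to 939 in wt, and 4 of the 5 were at 0 in at least 1 d24 library. The 6 B cell markers summed to 61.9 to 321 in d24 spleen and 468 to 625 in wt spleen, with 1 of the 6 called lower. Their part in the values above was not tested.

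In liver, Fance was at 4.30, 6.09 and 6.88 in the libraries titled d24 and 13.3, 12.3 and 8.20 in those titled wt (-0.91, 95% interval -1.78 to -0.03, adjusted p = 0.364). Fancf was at 4.24, 3.52 and 3.93 in d24 liver and 5.32, 6.54 and 10.7 in wt liver (-0.81, 95% interval -1.78 to 0.15, adjusted p = 0.458). These were the 2 genes whose d24 values lay wholly below the wt values, as 11.5% of all genes did. Fanca was at 1.74, 0.801 and 3.37 in d24 liver and 6.89, 4.72 and 1.69 in wt liver (-0.97, 95% interval -2.40 to 0.47). Fancb in wt liver replicate 1 rested on 1 read, a signal of 0.0657 beside 6.04 and 6.39 in the other wt livers. The d24 livers also held less of several blood cell markers. The 6 B cell markers summed to 7.30 to 8.29 in d24 liver and 27.2 to 79.1 in wt liver, with 1 called lower, and the 5 neutrophil precursor markers to 1.05 to 3.61 in d24 liver and 22.5 to 34.6 in wt liver, with 1 called lower. The 10 T cell and thymocyte markers summed to 14.7 to 22.1 in d24 liver and 38.4 to 84.7 in wt liver, with 2 called lower, and Elane, Ctsg, Rag2 and Ptcra were at 0 in all 3 d24 livers. The part of these shifts in the Fance and Fancf values was not tested. Cdkn1a was at 360, 364 and 108 in d24 liver and 17.7, 34.4 and 147 in wt liver, uneven within both groups.

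In thymus, d24 replicate 3 was the lowest d24 library for all genes but Fance. Fanci was at 26, 23.2 and 5.19 in d24 thymus and 14.3, 17.4 and 17.8 in wt thymus (-0.15, 95% interval -1.28 to 0.99). Fancg, at 15, 16.7 and 5.65 in d24 thymus and 7.80, 8.15 and 8.18 in wt thymus (0.46, 95% interval -0.49 to 1.42), showed the same split. The groups overlapped for all 10 genes, where they did not for 16.6% of all genes. That library also had the lowest Mki67, at 350 beside 726 and 862 in the other d24 thymi, and the highest hepatocyte sum of the d24 thymi, 1281. Its erythroid precursor sum was 1198 beside 90.8 and 87.2, and its macrophage sum 260 beside 137 and 126. The neutrophil precursor sum was 12.3 beside 0.444 and 0.642. It had the lowest T cell and thymocyte sum, 4990 beside 7044 and 8098, and proliferation sum, 1234 beside 3595 and 3716. The part of this makeup in its Fanconi anemia values was not tested. The d24 differences were not shown to differ between the tissues for any of the 10 genes by limma, edgeR or DESeq2. By limma 0 of the 10 had an unadjusted p below 0.05, beside 1865 of 16092 genes, in a test that called 0.988% of genes.

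**Figure D5:**
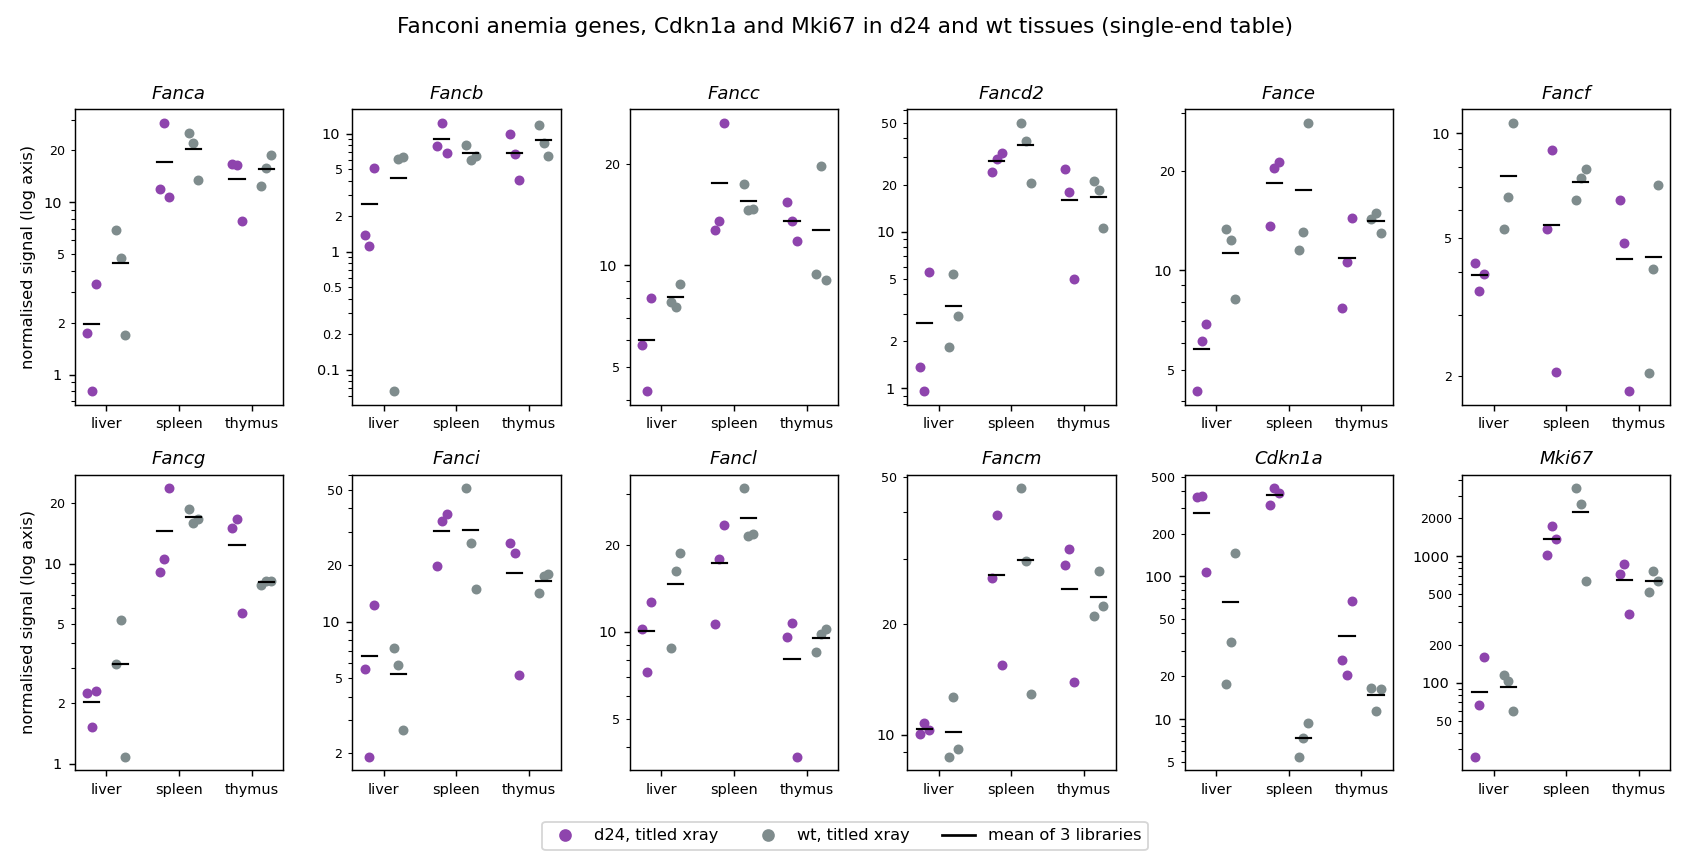
Normalised signal (log axis, its range set for each gene) of the 10 genes, Cdkn1a and Mki67 in each single-end library, d24 beside wt in liver, spleen and thymus, all titled xray; points are libraries and lines are means of 3. The groups overlap for all 10 Fanconi anemia genes in spleen and thymus, while Cdkn1a is at 319 to 416 in d24 spleen and 5.46 to 9.37 in wt spleen.

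Across the 18 paired-end libraries, with each tissue centred on its own mean, the genes varied to different degrees in step. Among the 8 genes with a mean signal of at least 5, the 28 pairwise correlations ran from 0.32, between Fance and Fancm, to 0.95, between Fancd2 and Fancg, with a median of 0.74. The 5 genes whose log2 signal ran closest to Fancd2 among 10908 were Zwilch, Ttk, Rad51ap1, Traip and Kntc1, with Pearson correlations of 0.98, 0.98, 0.98, 0.98 and 0.97. Those closest to Fanca were Atp5g1, Gins2, Cep128, Dctn6 and Rpa1, at 0.97, 0.97, 0.96, 0.96 and 0.96. The libraries share the X-ray contrast and their depth, so these are descriptions.

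In the GENCODE vM21 annotation of GRCm38, Fanca (NCBI gene 14087) spans chr8:123268300-123318576 on the minus strand and Fancm (gene 104806) chr12:65075603-65132058 on the plus strand. Fancd2 (gene 211651) spans chr6:113531682-113597017 and Fanci (gene 208836) chr7:79391929-79450264, both on the plus strand. Fancb (gene 237211) lies at chrX:164980592-164997272 and Fancf (gene 100040608), a gene of 1 exon, at chr7:51860577-51862267. Fancc (gene 14088), Fance (gene 72775), Fancg (gene 60534) and Fancl (gene 67030) are on chromosomes 13, 17, 4 and 11. In the same annotation, genes on the opposite strand share 16.4% of the exon bases of Fancc (Gm16133), 15.95% of Fanci (Polg), 14.96% of Fancf (Gas2), 13.7% of Fancl (Vrk2) and 10.5% of Fanca (Zfp276). The kit keeps the strand, but no label or header states that the counting used it, and the levels of these genes are uncertain to that extent.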

How the data were processed

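Expression was measured in 36 libraries of liver, spleen and thymus in 12 groups of 3. Per the labels' protocols, organs went into RNAlater, the RNeasy Mini kit gave the RNA, and a TruSeq Stranded kit for total RNA gave the libraries. The authors deposited 1 table of paired-end and 1 of single-end libraries holding a normalised signal per gene, and their processing notes name edgeR and mm10. The aligner, the counter, the annotation and any use of strand were not given in the sources used here. Within a library every value was a whole multiple of 1 step (100% of values, tolerance 0.01 of a step), so the deposited signal is read counts scaled by a factor per library, and reads were recovered from it. NCBI gene numbers matched a RefSeq symbol in 18380 of 19001 rows and 17186 of 17697 rows. The paired-end table has 18 further columns that match no library of the series and were not used.

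In each comparison, genes reaching a signal of 1 in 3 or more of its libraries entered limma 3.58.1 (R 4.3.3, empirical Bayes with a mean-variance trend) as log2(signal + 0.5), with only the groups compared. P-values were adjusted by Benjamini and Hochberg's method across every tested gene, and a gene with an adjusted p below 0.05 is called. Differences are on that log2 scale, which understates those of low genes, and are X-ray minus untreated, d24 minus wt, or the first-named tissue minus the other. Tissue dependence was tested as an interaction. The tables were analysed separately. The alternatives tried were a pseudocount of 0.1 or 2, leaving out the filter or asking for a mean signal of 5 or more, median-ratio scaling, no trend, 1 fit of all 18 libraries of a table, Xist as a covariate (no count of calls in the X-ray or d24 comparisons changed), the replicate number as a block, each library left out, and edgeR 4.0.16 and DESeq2 1.42.0 on the recovered reads. The fit was tested on simulated data.

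The members and the gene lists were chosen with earlier results of these data known. All 10 members are named in every comparison; other pathway genes are named where called after X-rays, up to 4 a comparison by smallest p; Cdkn1a, Mki67, Mcm2 and Trp53 give context; and the 5 genes most correlated with Fancd2 and with Fanca are named. Replicate numbers come from the titles. Libraries of the same number deviated together in all 3 pairs of X-ray and untreated spleen (correlations 0.18, 0.24 and 0.19). They did so in thymus too (0.06, 0.48 and 0.25), weakly in the first pair, and not in every pair of the other comparisons. The main tests did not pair the samples, and the replicate number entered only as a block among the alternatives.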

Additional observations from a re-analysis of the deposited data

Results flagged for a closer look

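The X-ray difference of 3 of the 10 Fanconi anemia genes depended on the tissue by limma's interaction test, a share near the 30.5% of all genes that it called, so the count says nothing particular about these genes. Fancm was called in every refit, while Fance was lost in 9 refits and Fancf in 3. Fancm had F = 14.9: its log2 difference was -1.18 in spleen, -0.52 in thymus and -0.03 in liver. Fancf had F = 7.55: its log2 difference was -0.79 in spleen, -0.14 in thymus and -0.17 in liver. Fance had F = 6.33: it differed by -0.64 in liver and -0.54 in spleen, and by 0.26 in thymus, the only positive X-ray difference among the 10 genes in the 3 tissues.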

How the results depend on the processing

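No difference of a Fanconi anemia gene changed direction while called under any alternative, and of 2081 recomputed values 2045 kept their side of the threshold. One fit of all 18 paired-end libraries called 4 genes lower in X-ray liver (Fancd2, Fance, Fancg and Fanci) and 1 in X-ray thymus (Fancm); the cause was not tested. With 1 library left out, the counts ranged from 0 to 4 in X-ray liver, 7 to 10 in X-ray spleen, 3 to 3 in X-ray thymus, 1 to 6 for the tissue dependence of the X-ray difference and 24 to 25 of 30 tissue comparisons; they were 0 in each d24 comparison. Fits that leave 2 libraries in a group take its spread as like that of the other group. The share of all genes called is not given for these refits, so their counts have no background beside them. With the replicate number as a block the counts were 8 in spleen, 3 in thymus and 0 in liver, and 3 for the tissue dependence, and the block changed no call of these counts. That block joins X-ray and untreated libraries of the same number, which for replicate 2 differed in Xist. It therefore cannot stand for the animal. Median-ratio scaling moved no comparison's all-gene median by more than 0.0604 on the log2 scale. With 3 libraries a group and wide spread between the single-end libraries, differences well over 1 on the log2 scale could not be told from none in the d24 comparisons. Fancf rested on 71 to 216 reads a library in the paired-end spleens. Fancb rested on 1 read in replicate 1 of the single-end livers titled wt.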
